A study of Homo sapiens with 32 samples.

Results

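The HOX genes of the 4 human clusters were followed through 32 RNA-seq libraries of HEK293T cells, a line derived from human embryonic kidney that carries the SV40 large T antigen. The members were the 38 HOXA, HOXB, HOXC and HOXD genes on a fixed list of symbols, matched by Ensembl ID to the deposited count tables, and all 38 were found among the 60662 gene IDs. HOXA contributed 10 members on chromosome 7, HOXB 10 on chromosome 17, HOXC 9 on chromosome 12 and HOXD 9 on chromosome 2. Membership rests on the gene's name and cluster and uses no measured value.

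HOX genes encode homeodomain transcription factors that give cells of the embryo their position along the head-to-tail axis. Each cluster arose by duplication of one ancestral row of genes, so genes at the same place in different clusters are paralogs and share a number. Low-numbered (anterior) genes are used towards the head and high-numbered (posterior) genes towards the tail, limbs and urogenital tract, and many adult cell lines keep part of the pattern of the tissue they came from. N6-methyladenosine (m6A) is a methyl mark that the METTL3 and METTL14 writer complex places on adenosines of mRNA, mostly within a short sequence context of which GGACT is a preferred form, in long exons and away from splice junctions. YTHDF2 is a cytoplasmic protein that binds the mark and brings the transcript to deadenylation and decay.

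The libraries came from 3 separate experiments, all in HEK293T cells. In the knockdown experiment cells received 20 µM STM2457, an inhibitor of the METTL3 methyltransferase, or 0.2% (v/v) DMSO alone for 6 h, each without or with a YTHDF2 siRNA at 20 nM (3 libraries in each of the 4 groups). The libraries without the YTHDF2 siRNA were labelled WT, and the labels do not say whether those cells received the non-targeting siRNA. In the 9 h experiment STM2457 was set against DMSO (4 libraries each). In the emetine experiment STM2457 or DMSO was given for 6 h, with 1.8 µM emetine, which blocks translation elongation, or its DMSO vehicle for the last 2 h (3 libraries in each of the 4 groups). All libraries were poly(A)-selected, and every level below is a read count scaled by library size (CPM), while log2 values are differences between groups fitted by edgeR.

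Total counts ranged from 37694945 to 42303951 per library in the knockdown experiment, from 22510323 to 34677704 in the 9 h experiment and from 21781514 to 28053353 in the emetine experiment. The 38 members together took between 0.107% and 0.271% of the counts of a library. YTHDF2 itself fell from 178 ± 3.90 to 43.2 ± 1.14 CPM (SD, n = 3) with its siRNA in DMSO, a log2 change of −2.04 (SE 0.06, edgeR adjusted p = 8.25e-15). YTHDF2 stood at 618 ± 36.7 CPM with STM2457 alone and at 76.9 ± 3.28 CPM with STM2457 and siRNA (SD, n = 3). All 8 genes chosen to check for HEK293T cells averaged at least 1 CPM, as against 3 of 7 fibroblast, 0 of 5 keratinised epithelium, 1 of 6 blood and 0 of 5 hepatocyte markers. The summed level of the fibroblast list ran from 19.4 to 32.3 CPM over the 32 libraries.

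HOX transcripts have a simple gene structure, which sets the places where the mark can lie. In the GENCODE 29 annotation (GRCh38), 35 of the 38 reference transcripts had 2 exons, against 674 of 13465 expressed protein-coding genes (5.01%), whose median was 9 exons. The median coding length was 864 nt, against 1440 nt over those genes, and the coding sequence held 62.5% G and C, against 52.7%. The letters GGACT were searched on the transcript strand only. They stood at least once in the coding sequence of 24 of 38 members (63.2%), beside 66.0% of the 6574 other protein-coding genes with a coding length between 654 and 1332 nt, so the members held it about as often as genes of their length. The windows below are those of some members named in the results, together with paralogs that hold the letters at the matching place. Each is 29 nt of coding sequence, 5′ to 3′, and the capitals mark GGACT. The number is the position of its first G in the coding sequence, counted from 1 at the start codon.

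HOXA5 51: tccaaatggcccGGACTaccagttgcata
HOXB5 51: tccaaatggcccGGACTatcagttgctaa
HOXA5 105: cgagcaattcagGGACTcggcgagcatgc
HOXA6 54: tcccagcggccaGGACTccttcttgggcc
HOXA6 300: gaggggccccggGGACTacctgcactttt
HOXA6 675: gcccagcggggaGGACTcagaggcaaagg
HOXA9 36: caactactacgtGGACTcgttcctgctgg
HOXC9 36: taactattacgtGGACTcgctcatctctc
HOXD9 66: caactactacgtGGACTcgcttataggcc
HOXC9 135: cggtttggtgccGGACTgtagcgattttc
HOXC9 281: cgcgctacatgcGGACTtggctcgagccg
HOXC9 384: cgggcgccgcgcGGACTgcggcccagggg
HOXC9 417: ccgcagctacccGGACTacatgtacggct
HOXB8 550: tcgcacgccctgGGACTgacagagagaca
HOXC8 559: tctcatgccctgGGACTgaccgagagaca

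The first 2 of these lines show that HOXA5 and HOXB5 carried the letters at the same coding position inside windows identical at 26 of 29 bases. HOXA5 lay at chr7:27143541-27143569 on the minus strand and HOXB5 at chr17:48593616-48593644 on the minus strand, both in exon 1. Around the conserved start of the position 9 genes, the windows of HOXC9 and HOXD9 shared 22 of 29 bases, those of HOXA9 and HOXD9 21, and those of HOXA9 and HOXC9 20. These 3 lay at chr7:27165406-27165434 (HOXA9, minus strand), chr12:54000212-54000240 (HOXC9, plus strand) and chr2:176122822-176122850 (HOXD9, plus strand), all coding. The exon 2 windows of HOXB8 (chr17:48613368-48613396, minus strand) and HOXC8 (chr12:54011199-54011227, plus strand) shared 26 of 29. HOXC9 was the densest member, with 6.39 GGACT per kb of coding sequence over its 5 windows, the last of them at chr12:54000593-54000621. HOXA6 held its first at chr7:27147680-27147708 on the minus strand. HOXB9 and HOXD13, the members with the highest levels, held none in their coding sequences. The shorter run GGAC stood there at 6.64 and 9.69 per kb, against a median of 4.65 over the members. In the 3′ untranslated region HOXB9 held 0 GGACT and HOXD13 held 1. There 26 of 38 members held at least 1, against 56.6% of the 13465 expressed protein-coding genes. The median density there was 1.38 GGACT per kb over the members, against 0.50 over the 13253 of those genes with such a region. The difference was not tested. A match is a run of letters and not a measured methylation site.

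In DMSO the 38 members spanned a range from HOXB9 down to HOXB1, which received 2 reads in all 32 libraries together. Levels between genes are compared per kb of merged exon length. In the DMSO libraries of the knockdown experiment HOXB9 stood highest at 106 ± 6.31 CPM per kb (SD, n = 3). HOXD13 followed at 50.5 ± 2.63, HOXA5 at 34.9 ± 1.34, HOXB6 at 31.2 ± 0.686 and HOXA9 at 21.7 ± 1.82 CPM per kb. The libraries of neighbours in this order did not overlap down to HOXA9. HOXA10 (17.8 ± 0.703) and HOXA11 (17.6 ± 0.793) overlapped each other and could not be ordered, nor could HOXB8 (13.5 ± 1.02) and HOXA6 (13.2 ± 0.771). Further down, the members from HOXC9 at 9.16 to HOXD10 at 8.43 CPM per kb, overlapped from one to the next.

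The order was much the same in the other DMSO groups, with 1 exchange near the top. In the 9 h experiment HOXB9 stood at 112 ± 2.45 CPM per kb (SD, n = 4), and HOXA5 (63.5 ± 2.77) overlapped HOXD13 (62.8 ± 1.37). In the emetine experiment HOXB9 stood at 125 ± 0.890, HOXD13 at 57.4 ± 1.62 and HOXA5 at 37.6 ± 1.06 CPM per kb (SD, n = 3). Some DMSO levels differed between experiments: HOXA5 stood at 59.6 ± 2.28 CPM in the knockdown experiment and at 108 ± 4.72 CPM in the 9 h experiment, and HOXA3 at 12.8 ± 0.502 and 24.3 ± 0.828 CPM. The experiment and the treatment time cannot be told apart here.

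**Figure D1:**
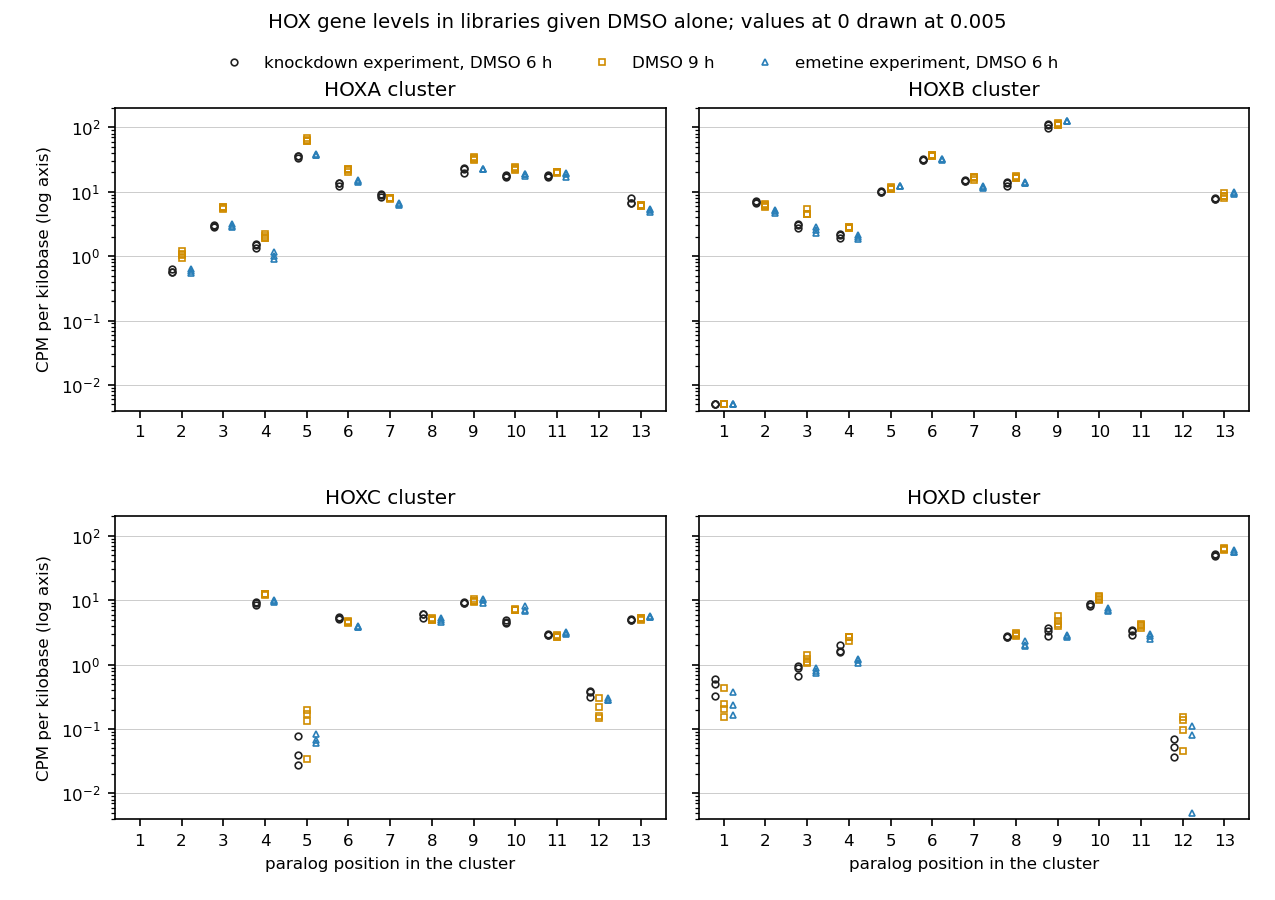
Levels of the 38 HOX genes in the DMSO libraries of the 3 experiments, as CPM per kb of exon on a log axis against paralog position, with 1 panel per cluster; each point is 1 library and libraries at 0 are drawn at 0.005. HOXB9 and HOXD13 are the highest points of their panels, and HOXB1, HOXC5 and HOXD12 lie at the bottom.

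The clusters contributed unequally. Of the summed HOX level in DMSO in the knockdown experiment, 1087 ± 37.0 CPM, HOXB held 45.8%, HOXA 29.7%, HOXD 14.9% and HOXC 9.54%. HOXB9 alone held 25.1% and HOXD13 10.4% of that sum. The lowest members were counted too rarely to test or to test well. HOXB1 and HOXD12 (100 reads over 32 libraries) did not pass the low-count filter in any experiment, and HOXC5 (298 reads) passed in the knockdown and 9 h experiments only. All 36 other members were tested in at least 1 experiment. Several anterior members were also low: HOXA2 stood at 0.591 CPM per kb, HOXD1 at 0.469 and HOXD3 at 0.830. HOXD3 shares 62.2% of its merged exon length with the annotated gene AC009336.2 on the same strand. How reads in shared exons were counted is not given, so its level per kb may be too low.

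STM2457 for 6 h raised most of the HOX genes in the knockdown experiment. Of 36 tested members 28 rose and 1 fell at an edgeR adjusted p under 0.05, and 7 did not pass. The same test called 45.0% of all 16662 genes, 22.9% higher and 22.1% lower. The members' median log2 change was 0.50, and that of all genes −0.02. The summed HOX level went from 1087 ± 37.0 to 1924 ± 34.7 CPM (SD, n = 3). In such bulk samples more cells that express a gene and more RNA per cell cannot be told apart. HOXA led with 10 of 10 members higher (median log2 change 0.71), followed by HOXD with 6 of 8 higher and 1 lower (0.56), HOXB with 6 of 9 higher (0.35) and HOXC with 6 of 9 higher (0.26).

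HOXD13, the terminal gene of its cluster and a regulator of digit formation, moved most (chromosome 2, 176092891 to 176095938, plus strand, no exon shared with another annotated gene). Its 3 DMSO libraries read 114, 119 and 107 CPM and its 3 STM2457 libraries 423, 400 and 484 CPM. The groups lay far apart, and the fitted log2 change was 1.94 (SE 0.067, edgeR adjusted p = 2.31e-13). HOXD13 thereby went from 10.4% to 22.6% of the summed HOX level, level with HOXB9 at 22.9%. HOXC9, the GGACT-dense gene shown above, read 15, 15.8 and 15.4 CPM in DMSO and 32.9, 33.9 and 35.2 CPM with STM2457 (log2 1.15, SE 0.064, edgeR adjusted p = 6.16e-11). Every treated library of HOXC9 was above 2 times its DMSO mean. HOXA5, which carries 2 of the windows above and is needed for lung and thoracic development, read 60.6, 61.1 and 57.0 CPM in DMSO and 104, 103 and 106 CPM with STM2457 (log2 0.81, SE 0.046, edgeR adjusted p = 8.3e-11).

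The highest member also rose. HOXB9 read 277, 286 and 255 CPM in DMSO and 428, 455 and 438 CPM with STM2457, a log2 change of 0.69 (SE 0.051, edgeR adjusted p = 2.81e-09). It holds no coding GGACT. Of the Abd-B-like genes of HOXA, HOXA9, known from myeloid leukaemia, read 68.1, 69.7 and 59.4 CPM against 115, 116 and 125 CPM (log2 0.85, SE 0.061). HOXA10, which acts in uterine development, rose by a log2 change of 0.68, and HOXA11, which acts in limb and kidney development, by 0.73. The treated and control libraries of these 3 genes did not overlap. Members named by smallest p are likely to show this, here and in the comparisons below, so it adds no support to the calls.

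Lower-expressed members moved by similar amounts. HOXA4 read 2.31, 2.7 and 2.61 CPM in DMSO and 4.85, 5.89 and 5.79 CPM with STM2457 (log2 1.11, SE 0.112). HOXB6 (log2 0.74), HOXB7 (0.69), HOXA3 (0.78), HOXD10 (0.62), HOXD9 (0.70), HOXC11 (0.59) and HOXA6 (0.51) completed the 15 rising members with the smallest p-values. Their groups did not overlap, which selection by p-value favours. HOXD4 went the other way, from 2.41, 2.96 and 2.30 CPM to 1.87, 2.29 and 1.41 CPM (log2 −0.46, SE 0.171, edgeR adjusted p = 0.0349). This call rested on single libraries: without DMSO replicate 2 the change was −0.36 (adjusted p = 0.14), without STM2457 replicate 1 −0.48 (0.056) and without STM2457 replicate 3 −0.31 (0.144), all with edgeR. On the same strand HOXD4 shares 80.5% of its merged exon length with the annotated gene AC009336.2. How reads in shared exons were counted is not given, so the counts of HOXD4 may rest on part of its exons.

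**Figure D2:**
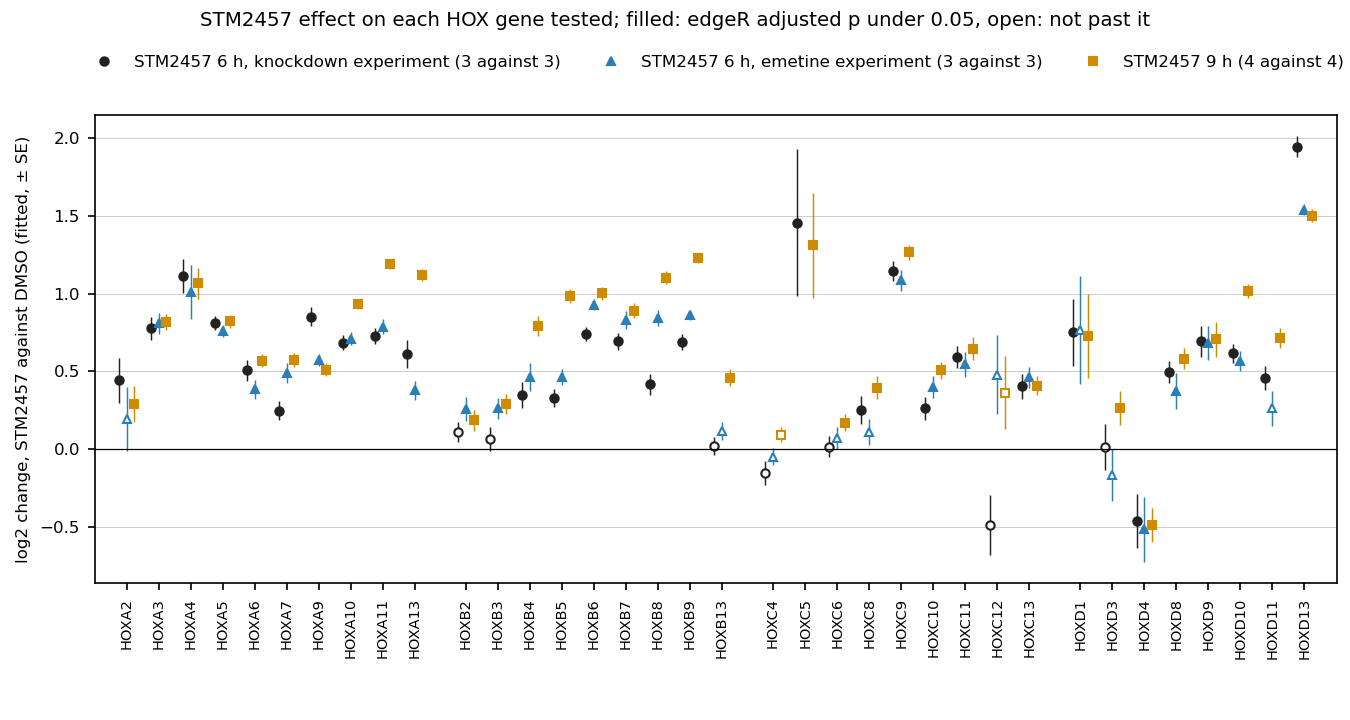
Fitted log2 change with STM2457 (± SE) for the tested HOX genes in the 3 experiments, with the genes in cluster order along the x axis; filled points passed edgeR's adjusted p of 0.05. HOXD13 is the highest well-measured point of each experiment (1.94 in the knockdown, 1.50 in the 9 h and 1.54 in the emetine experiment). HOXD4 is filled below 0 in all 3. Under spike-in scaling the points of the knockdown experiment would sit 0.37 lower together.

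These calls depended on how libraries were scaled. With scaling to 86 ribosomal protein genes instead of TMM, the median change of all genes at 6 h moved by −0.26, and with scaling to the 92 ERCC spike-ins by −0.37. The members then counted 15 higher and 3 lower, and 4 higher and 3 lower. Over all genes the shares were 7.47% higher and 44.3% lower with ribosomal protein genes, and 2.39% and 30.1% with spike-ins. The members' median lay 0.52 above that of all genes under TMM, 0.52 with ribosomal protein genes and 0.53 with spike-ins, a gap that a change of scaling leaves in place by construction. The 16 members named above kept their sign under both scalings. The spike-ins' share of counts varied within groups: 0.309%, 0.365% and 0.301% in DMSO and 0.415%, 0.328% and 0.463% with STM2457. Spike-in scaling carries this spread into every gene, so a call lost there does not show that an effect was absent.

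The rise was seen again in both other experiments. At 9 h 33 of 36 tested members rose and 1 fell, with a median log2 change of 0.71, where 64.7% of 15834 genes passed, 32.2% higher and 32.5% lower. In the emetine experiment without emetine, 25 of 35 tested members rose and 1 fell (median 0.48), where 47.8% of 15817 genes passed, 26.0% higher and 21.9% lower. The 3 comparisons share no library. In all 3, 23 members rose: 9 of HOXA (all but HOXA2), HOXB4 to HOXB9, HOXC9, HOXC10, HOXC11 and HOXC13, and HOXD8, HOXD9, HOXD10 and HOXD13. HOXC4, HOXC12 and HOXD4 rose in none. How many of all genes rose in all 3 was not counted, so the 23 cannot be called particular to the members. With ribosomal protein scaling all genes' median shifted by 0.17 at 9 h and by −0.17 in the emetine experiment. The members then counted 34 higher and 1 lower at 9 h, and 22 higher and 2 lower in the emetine experiment, where spike-in scaling (a shift of −0.13) gave 22 and 1. Over all genes ribosomal protein scaling gave 47.5% higher and 15.3% lower at 9 h, and 13.9% and 42.3% in the emetine experiment. Spike-in scaling gave 13.2% and 29.6% there.

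HOXB9 had the smallest p-value at 9 h. Its libraries read 289, 285, 297 and 282 CPM in DMSO and 672, 658, 696 and 676 CPM with STM2457 (log2 1.23, SE 0.031, edgeR adjusted p = 2.2e-20). In the emetine experiment HOXB9 read 322, 319 and 324 CPM against 580, 582 and 593 CPM (log2 0.86, SE 0.032, edgeR adjusted p = 3.25e-21). The groups were clear of each other in both. HOXD13 read 137, 139, 144 and 142 CPM against 362, 427, 411 and 394 CPM at 9 h (log2 1.50, SE 0.039, edgeR adjusted p = 5.25e-20). In the emetine experiment it read 127, 126 and 133 CPM against 372, 364 and 385 CPM (log2 1.54, SE 0.035, edgeR adjusted p = 8.92e-27).

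Among the others, HOXC9 changed by log2 1.27 at 9 h and 1.09 in the emetine experiment, and HOXA11 by 1.19 and 0.79. HOXB6 changed by 1.00 and 0.93, HOXB8 by 1.10 and 0.84, HOXA10 by 0.93 and 0.71, and HOXA5 by 0.82 and 0.76. HOXA13, the terminal HOXA gene and a regulator of hand, foot and urogenital development, rose by 1.12 at 9 h, from 30.6, 31.6, 31.3 and 31.0 CPM to 65, 72.2, 65.5 and 67.2 CPM. HOXB5, HOXB7, HOXD10, HOXA3 and HOXA9 were also among the 15 with the smallest p-values in both comparisons, with log2 changes of 0.98, 0.89, 1.02, 0.82 and 0.51 at 9 h. None of the members named here had overlapping groups, which selection by p-value favours.

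HOXD4 fell again in both. At 9 h it read 3.40, 3.94, 3.89 and 3.96 CPM in DMSO and 2.79, 2.80, 2.65 and 2.58 CPM with STM2457 (log2 −0.49, SE 0.109, edgeR adjusted p = 0.000377). In the emetine experiment it read 1.81, 1.53 and 1.75 CPM against 1.44, 0.932 and 1.19 CPM (log2 −0.52, SE 0.210, edgeR adjusted p = 0.0419). The 9 h call held without any single library. The call in the emetine experiment was lost in edgeR without DMSO replicate 1 (adjusted p = 0.0904) or 3 (0.0697) and without STM2457 replicate 2 (0.161) or 3 (0.0633). HOXD4 was the only member lower in all 3 comparisons.

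**Figure D3:**
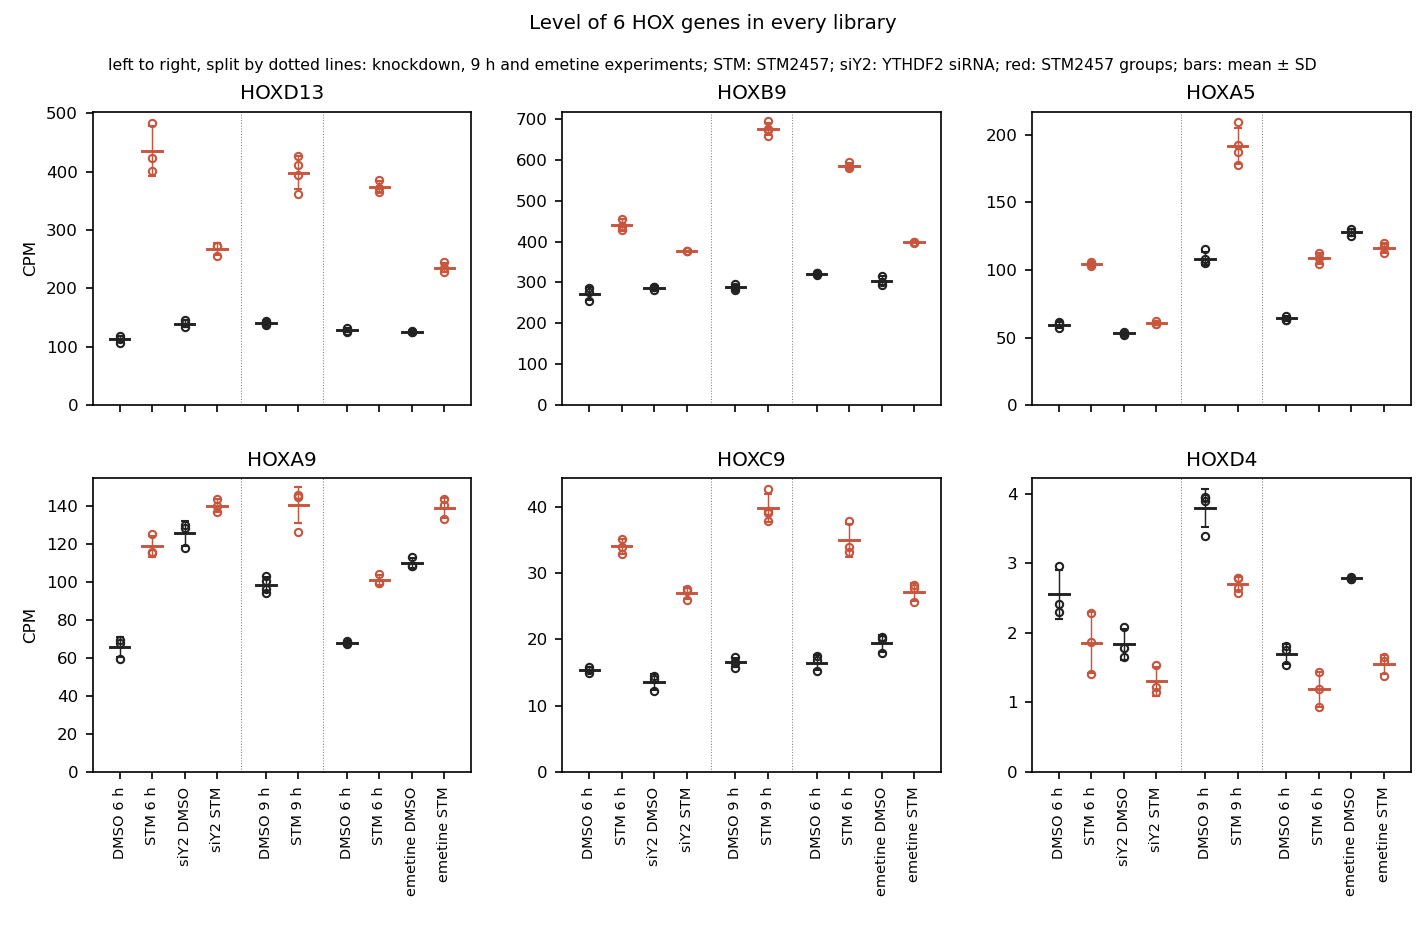
CPM in every library, with the mean and SD of each group, for HOXD13, HOXB9, HOXA5, HOXA9, HOXC9 and HOXD4 over the 10 treatment groups. The STM2457 libraries of HOXD13 lie between 228 and 484 CPM and its other libraries between 107 and 145 CPM, and the STM2457 libraries of HOXD4 lie below their own controls.

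By position along the clusters, the anterior genes had the lowest median change in all 3 comparisons. At 6 h in the knockdown experiment 3 of 6 anterior members (positions 1 to 3) rose, with a median log2 change of 0.28. Of the central members (4 to 8) 12 of 15 rose and 1 fell (median 0.42), and of the posterior members (9 to 13) 13 of 15 rose (median 0.62). At 9 h the medians were 0.29, 0.79 and 0.71, and in the emetine experiment 0.26, 0.46 and 0.57. Over single genes the relation was weak: Spearman's rho between paralog position and log2 change was 0.11 at 6 h (n = 36), 0.31 at 9 h (n = 36) and 0.20 in the emetine experiment (n = 35). Within a comparison these points share the same libraries, and several anterior genes were low in counts.

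All 4 position 9 genes, HOXA9, HOXB9, HOXC9 and HOXD9, rose in each of the 3 comparisons, with medians of 0.77, 0.97 and 0.77. The 3 position 10 genes did so too (medians 0.62, 0.93 and 0.57). Position 4 was mixed: HOXA4 and HOXB4 rose in all 3, HOXC4 in none, and HOXD4 fell. Of the position 9 genes, HOXA9, HOXC9 and HOXD9 hold the shared GGACT window shown above, and HOXB9 does not. Over all members the median 6 h change was 0.51 for the 23 tested members with a coding GGACT and 0.46 for the 13 without, and the order was the other way at 9 h (0.65 and 0.79). For GGACT in the 3′ untranslated region the 6 h medians were 0.42 for 25 members with it and 0.59 for 11 without. At 9 h these were 0.71 and 0.65. Spearman's rho between GGACT per kb of coding sequence and log2 change was 0.19 at 6 h and −0.04 at 9 h (n = 36).

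Genes with the same exon number offer a nearer background than all genes. Of 638 other genes with 2 exons, 50.5% rose and 13.3% fell at 6 h, with a median log2 change of 0.27. At 9 h 66.6% of 617 such genes rose (median 0.43), and in the emetine experiment 52.2% of 624 (median 0.29). The HOX medians of 0.50, 0.71 and 0.48 lay above these, with no test of that difference. Of genes with 11 or more exons 16.1% rose at 6 h (median −0.08). Since 24 members share exon sequence with another annotated gene, the calls were also split by overlap: at 6 h 10 of the 12 tested members without any overlap rose (median 0.54), and 18 of the 24 with one (0.48).

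YTHDF2 siRNA in DMSO moved the HOX genes in both directions. Of 36 tested members 16 rose and 12 fell (median log2 change 0.08), where 62.4% of all genes passed, 33.1% higher and 29.3% lower. Of the 638 other genes with 2 exons 40% rose and 28.1% fell (median 0.10), so the members' counts lay near this background. The directions differed between clusters: 6 of 10 HOXA members rose and 2 fell, 6 of 9 HOXB members rose and 1 fell, 3 of 8 HOXD members rose and 2 fell, and 1 of 9 HOXC members rose and 7 fell. The median log2 change was −0.26 for HOXC and 0.26 for HOXA. The summed HOXC level was 104 ± 1.07 CPM in DMSO and 84.9 ± 2.04 CPM with the siRNA (SD, n = 3). Under ribosomal protein scaling 11 members rose and 6 fell, and under spike-in scaling 7 rose and 2 fell, while the median of all genes moved by 0.01 and 0.02. Over all genes 27.7% rose and 24% fell with ribosomal protein genes, and 15.9% and 13.4% with spike-ins.

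HOXB13, the most posterior HOXB gene and a prostate lineage factor, rose most surely, from 26.9, 26.5 and 27.4 CPM to 55.5, 51.3 and 55.7 CPM (log2 1.01, SE 0.054, edgeR adjusted p = 1.61e-11). It had not passed the test with STM2457 at 6 h, where its libraries read 28.9, 26.6 and 26.4 CPM. HOXA9 rose from 68.1, 69.7 and 59.4 to 128, 118 and 130 CPM (log2 0.93, SE 0.061, edgeR adjusted p = 2.67e-10). HOXA2, a hindbrain and branchial arch gene, rose from 1.39, 1.57 and 1.39 to 3.07, 3.59 and 2.98 CPM (log2 1.15, SE 0.133). HOXD8 (log2 0.78), HOXB7 (0.60), HOXA4 (0.66), HOXA3 (0.48), HOXB4 (0.44) and HOXA11 (0.32) also rose. HOXC5 rose by 2.28 with an SE of 0.416, from counts so low that its DMSO libraries read 0.0498, 0.141 and 0.0718 CPM.

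Of the 12 falling members 7 were of HOXC. HOXC12 fell by 1.86 on the log2 scale (SE 0.233), from 1.32, 1.27 and 1.05 CPM to 0.310, 0.366 and 0.314 CPM. HOXC6 (log2 −0.44), HOXC4 (−0.43), HOXC11 (−0.38), HOXC10 (−0.26), HOXC13 (−0.22) and HOXC9 (−0.17) fell with it under TMM, but with spike-in scaling none of these 6 passed (edgeR adjusted p from 0.111 to 0.613). With ribosomal protein scaling HOXC10, HOXC13 and HOXC9 did not pass (edgeR adjusted p from 0.117 to 0.225). Outside HOXC, HOXA10 fell from 66.2, 68.5 and 63.3 to 49.9, 49.2 and 51.7 CPM (log2 −0.39, SE 0.049, edgeR adjusted p = 1.2e-06), while its neighbours HOXA9 and HOXA11 rose. HOXD1 fell by 1.51 (SE 0.284), HOXD4 by 0.47, HOXB2 by 0.18 and HOXA5 by 0.17. The smaller calls of HOXC9, HOXD4, HOXB2 and HOXC13 rested on single libraries in edgeR: HOXC9 without DMSO replicate 2 (adjusted p = 0.0519) or siRNA replicate 1 (0.107), and HOXD4 without DMSO replicate 2 (0.09), siRNA replicate 1 (0.0685) or 3 (0.0571). HOXB2 was lost without siRNA replicate 2 (0.0757) and HOXC13 without siRNA replicate 3 (0.0638).

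**Figure D4:**
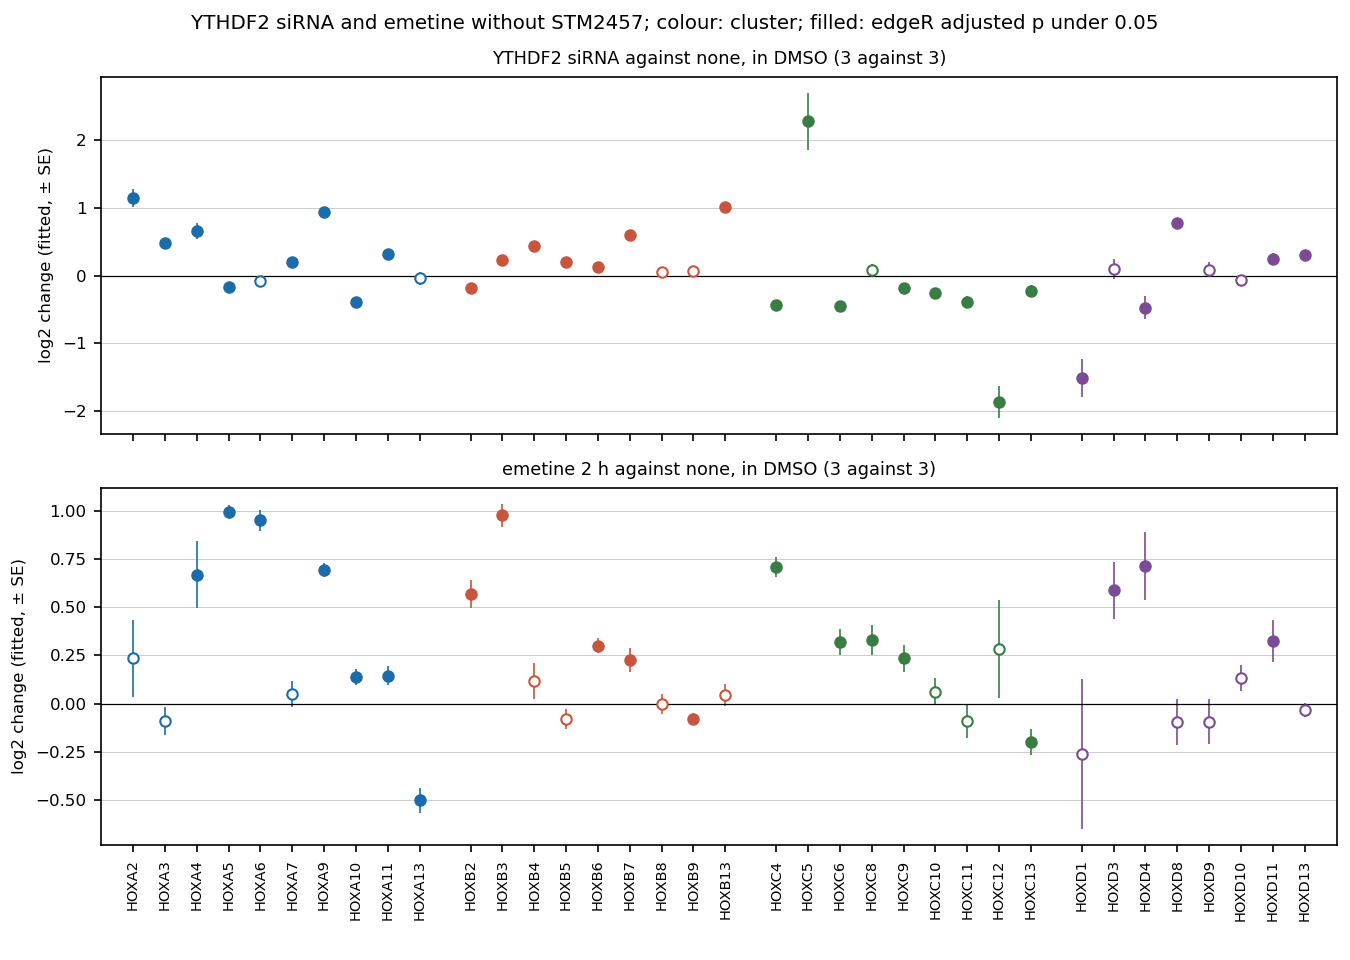
Fitted log2 change (± SE) with YTHDF2 siRNA in DMSO (top) and with emetine without STM2457 (bottom) for each tested HOX gene, colours marking HOXA, HOXB, HOXC and HOXD from left to right; filled points passed edgeR's adjusted p of 0.05. With the siRNA most filled HOXC points lie below 0 and most filled HOXA and HOXB points above; with emetine HOXA5 and HOXB3 are highest, and under ribosomal protein or spike-in scaling the emetine points would sit 0.44 or 0.49 higher together, so that HOXB9 and HOXC13 would change sign.

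Within the YTHDF2 siRNA background STM2457 raised 18 HOX genes under TMM scaling, but the members' median changed sign with the scaling. Of 36 tested members 18 rose and 0 fell (median log2 change 0.18), where 30.9% of genes passed, 15.5% higher and 15.4% lower. Among the 638 other genes with 2 exons, 34% rose and 17.7% fell (median 0.08). The summed HOX level went from 1226 ± 24.5 to 1618 ± 18.5 CPM (SD, n = 3). HOXC9 went from 12.3, 14.5 and 14.1 to 27.2, 26.0 and 27.7 CPM (log2 0.98, SE 0.065, edgeR adjusted p = 1.52e-09). HOXA3, which acts in pharyngeal organ formation, went from 16.4, 18.6 and 18.5 to 33.1, 31.0 and 33.9 CPM (log2 0.87, SE 0.072, edgeR adjusted p = 2.45e-08). HOXA11 (0.57), HOXB6 (0.53), HOXA4 (0.56) and HOXD9 (0.51) also rose. Under ribosomal protein scaling 6 members rose and 1 fell, and under spike-in scaling 3 rose and 1 fell. All genes' median moved by −0.19 and −0.31, and the members' median stood at −0.01 and −0.13. Over all genes 4.23% rose and 25.5% fell with ribosomal protein genes, and 0.828% and 14.3% with spike-ins. HOXA5, at 0.19 under TMM (edgeR adjusted p = 0.00435), turned to −0.12 with spike-ins.

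The difference between the STM2457 effects with and without the siRNA was tested as an interaction. It was past the threshold for 11 of 36 members, all with a smaller effect under the siRNA, where 8.70% of all genes passed, 1.78% with a larger effect and 6.93% with a smaller one. Of the 638 other genes with 2 exons 25.7% had a smaller effect and 0.784% a larger one. The members' share with a smaller effect, 30.6%, lay near this background. HOXA held 6 of the 11, HOXD 3, HOXB 2 and HOXC 0. HOXD13 read 140, 133 and 145 CPM with the siRNA and 255, 273 and 272 CPM with siRNA and STM2457. Its effect of log2 0.94 under the siRNA was smaller than the 1.94 without it by 1.01 (SE 0.092, edgeR adjusted p = 2.11e-06). HOXA5 differed by −0.62 (SE 0.066, edgeR adjusted p = 9.82e-06) and HOXA9 by −0.69 (SE 0.086, edgeR adjusted p = 4.14e-05). HOXA9 had been raised by the siRNA alone and read 144, 140 and 137 CPM with both treatments, close to its level with the siRNA.

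HOXB7 (difference −0.53), HOXA6 (−0.55), HOXD11 (−0.55), HOXD8 (−0.50) and HOXA13 (−0.63) had smaller effects as well. For HOXA6 the STM2457 libraries read 24.5, 24.8 and 22.8 CPM without the siRNA, against 15.8, 17.6 and 17.3 CPM in DMSO. With the siRNA the values were 16.2, 14.1 and 16.1 CPM against 16.2, 16.2 and 15.4 CPM, and the groups overlapped. For HOXC9 the effect was 1.15 without and 0.98 with the siRNA, and the difference did not pass. Scaling to ribosomal protein genes gave 2 such members in place of 11, and spike-in scaling called 0 of all 16662 genes. The spike-ins' share of counts read 0.472%, 0.365% and 0.327% in the libraries with siRNA and STM2457. That spread enters every gene under spike-in scaling, so the 0 calls do not show equal effects. With ribosomal protein genes 0.732% of all genes had a smaller effect. The members' median difference was −0.17, −0.10 and −0.11 under the 3 scalings.

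Emetine for 2 h in the absence of STM2457 raised more HOX genes than it lowered. Of 35 tested members 17 rose and 3 fell (median log2 change 0.15), where 62.2% of genes passed, 33.9% higher and 28.3% lower. Among the 624 other genes with 2 exons, 39.3% rose and 22.8% fell (median 0.11), so a lean upwards was not particular to the members. Of the 14 central members 9 rose and 0 fell (median 0.31), of the 6 anterior 3 rose and 0 fell (0.40), and of the 15 posterior 5 rose and 3 fell (0.06). HOXA5 went from 63.3, 62.9 and 66.2 to 130, 125 and 128 CPM, a 1.99-fold change (log2 0.99, SE 0.039, edgeR adjusted p = 5.43e-21). Its neighbour HOXA6 went from 19, 18.4 and 19.3 to 37.2, 37.2 and 35.2 CPM (log2 0.95, SE 0.055, edgeR adjusted p = 1.62e-16). HOXB3, an anterior hindbrain gene, went from 21.5, 17.2 and 19.3 to 37.9, 39.2 and 37.2 CPM (log2 0.98, SE 0.060, edgeR adjusted p = 1.23e-15).

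Each of these genes had libraries wholly above its controls, which selection by p-value favours. HOXA9 rose by 0.69, HOXC4 by 0.71, HOXD4 by 0.72, HOXA4 by 0.67, HOXD3 by 0.59 and HOXB2 by 0.57, HOXC8 by 0.33, HOXC6 by 0.32, HOXB6 by 0.30 and HOXB7 by 0.23. HOXA13 fell from 24.9, 26.3 and 27.7 to 17.3, 18.3 and 20.0 CPM (log2 −0.50, SE 0.063, edgeR adjusted p = 1.94e-08). HOXC13 (log2 −0.20) and HOXB9 (−0.08) fell by less. The small calls rested on single libraries: HOXA10 (log2 0.14) was 0.06 without DMSO replicate 2 (edgeR adjusted p = 0.216). HOXB9 was lost without emetine replicate 1 (0.204) or 2 (0.0938), and HOXC13 without emetine replicate 3 (0.0573).

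For emetine scaling moved the median of all genes more than in any other comparison within 1 experiment. With ribosomal protein genes the median of all genes moved by 0.44 and with spike-ins by 0.49, and 33 of 35 members then rose and 0 fell under either. Most genes rose with them: over all genes 72.4% rose and 2.58% fell with ribosomal protein genes, and 73.1% and 1.44% with spike-ins. HOXC13 stood at 0.24 and 0.28, and HOXB9 at 0.36 and 0.41, instead of below 0. HOXA13 stayed below 0, at −0.07 and −0.01, and did not pass. The gap of 0.11 between the members' median and that of all genes is left in place by any such scaling.

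In the presence of emetine STM2457 raised 20 of 35 members and lowered 4 (median log2 change 0.29), where 37.8% of genes passed, 21.6% higher and 16.2% lower. Among the 624 other genes with 2 exons, 38.1% rose and 19.9% fell (median 0.14). All 11 posterior members that passed rose, and the 4 that fell were central. HOXD13 went from 125, 125 and 128 to 245, 235 and 228 CPM (log2 0.91, SE 0.036, edgeR adjusted p = 2.86e-20). HOXA11 (0.63), HOXC11 (0.57), HOXB4 (0.51), HOXC9 (0.49), HOXB9 (0.39) and HOXB6 (0.39) rose as well. HOXA6 turned round: it fell from 37.2, 37.2 and 35.2 to 20.9, 21.3 and 22.2 CPM (log2 −0.77, SE 0.054, edgeR adjusted p = 1.25e-13), whereas STM2457 without emetine had raised it to 24.8, 23.8 and 25.3 CPM.

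HOXA5 fell slightly with STM2457 in emetine, from 130, 125 and 128 to 120, 113 and 117 CPM (log2 −0.13, SE 0.037, edgeR adjusted p = 0.00419). HOXC4, at −0.18, and HOXD4, at −0.84 (SE 0.181, edgeR adjusted p = 0.000299), were the others that fell. HOXD4 read 2.78, 2.81 and 2.78 CPM with emetine and 1.60, 1.66 and 1.38 CPM with both. With emetine its treated libraries were thus close to the level without emetine, 1.81, 1.53 and 1.75 CPM. With ribosomal protein scaling 14 members rose and 5 fell, and with spike-ins 12 rose and 4 fell. Over all genes 10.5% rose and 27.6% fell with ribosomal protein genes, and 8.54% and 16.3% with spike-ins.

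The STM2457 effect was smaller with emetine than without it for 16 of 35 members and larger for 0, where 17.8% of all genes passed, 6.73% (1065) with a larger effect and 1747 genes with a smaller one. Of 624 other genes with 2 exons 30.6% had a smaller effect. The median difference was −0.35 for the members and −0.01 for all genes. HOXA6 differed by −1.15 (SE 0.080, edgeR adjusted p = 1.98e-12), and HOXA5 by −0.89 (SE 0.054, edgeR adjusted p = 7.14e-14). HOXD13 differed by −0.63, HOXB6 by −0.54, HOXB7 by −0.53, HOXB8 by −0.48, HOXB9 by −0.48 and HOXA10 by −0.37. By cluster the count was 6 of 10 in HOXA, 5 of 9 in HOXB, 3 of 8 in HOXD and 2 of 8 in HOXC. Spike-in scaling gave 8 members in place of 16, with a median of −0.30, where 3.02% of all genes had a smaller effect.

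**Figure D5:**
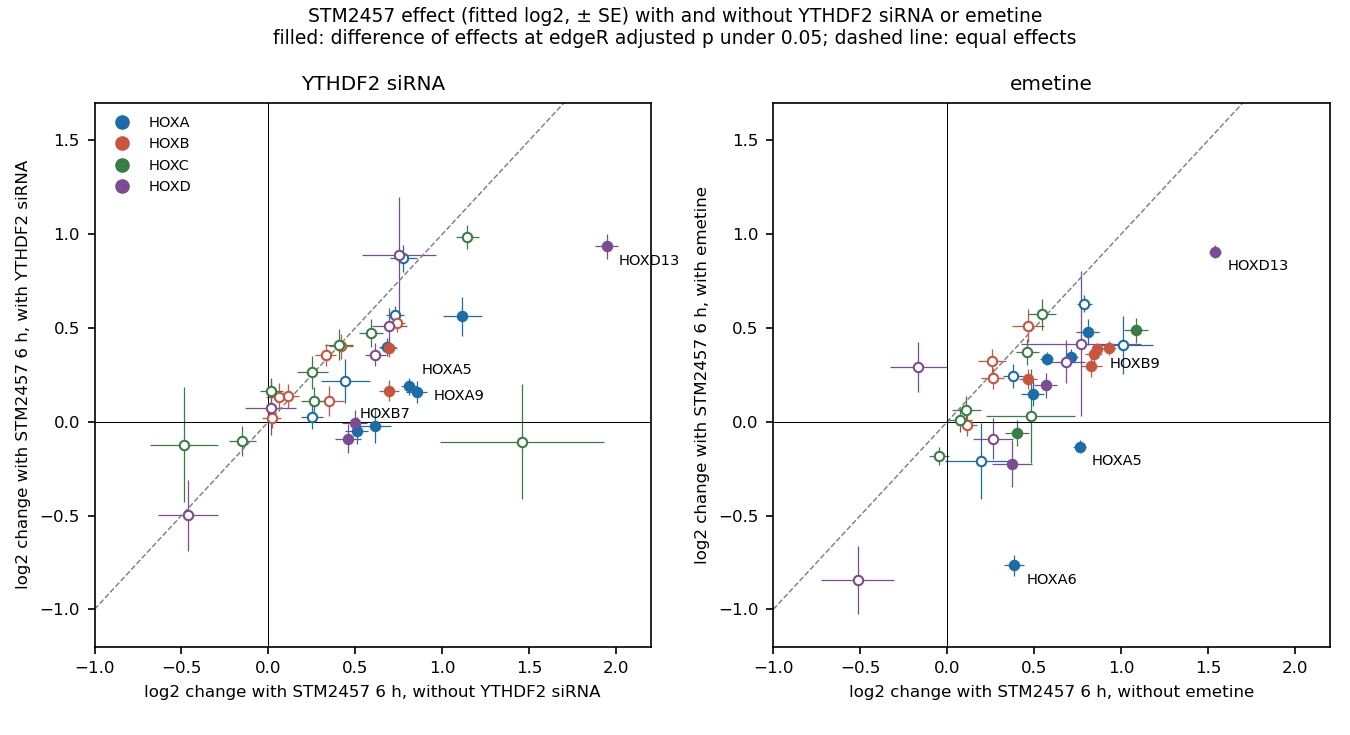
Effect of STM2457 for 6 h (fitted log2 change ± SE) on each tested HOX gene without (x axis) and with (y axis) YTHDF2 siRNA (left) or emetine (right); filled points are genes whose effects differed at edgeR's adjusted p of 0.05, and the dashed line marks equal effects. All filled points lie under the line; HOXD13 stands at 1.94 and 0.94 on the left and at 1.54 and 0.91 on the right, and HOXA6 lies below 0 with emetine.

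A fit over the 20 libraries with STM2457 or DMSO alone compared the sizes of the STM2457 effect across experiments. The effect at 9 h exceeded the mean of both 6 h effects for 12 of 36 members and was smaller for 2, where 38.6% of all 16720 genes passed, 2513 with a larger and 3939 with a smaller effect. Of the 637 other genes with 2 exons 28.7% had a larger and 18.8% a smaller effect, near the members' share of larger effects. Larger effects were most frequent in HOXB (6 of 9, median difference 0.37), with 4 of 10 in HOXA, 2 of 8 in HOXD and 0 of 9 in HOXC. HOXB5 differed by 0.57 (SE 0.057, edgeR adjusted p = 1.25e-08). It read 23.9, 23.1, 22.8 and 22.5 CPM in DMSO and 46.3, 45.6, 43.4 and 47.5 CPM with STM2457 at 9 h, as against 20.0, 20.9 and 19.9 and 24.7, 25.8 and 26.0 CPM at 6 h in the knockdown experiment. HOXA13 (0.61), HOXB8 (0.45), HOXB9 (0.43), HOXA11 (0.41), HOXD10 (0.41), HOXB13 (0.38) and HOXA10 (0.22) also had larger effects at 9 h. The smaller effects were those of HOXA9 (−0.22) and HOXD13 (−0.26), named after their values were seen. Time and experiment cannot be told apart, and with ribosomal protein scaling, which moved all genes' median by 0.41, 32 members were larger and 0 smaller. Under that scaling 60.3% of all genes had a larger effect and 0.658% a smaller one.

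Between the 6 h experiments the STM2457 effect differed for 2 of 36 members, where 0.843% of 16720 genes passed. HOXD13 had a smaller effect in the emetine experiment by 0.44 on the log2 scale, as −0.44 (SE 0.086, edgeR adjusted p = 0.0146), and HOXB8 a larger one by 0.38 (SE 0.087, edgeR adjusted p = 0.0323). Both calls rested on single libraries. HOXD13 was lost in edgeR without knockdown DMSO replicate 3 (adjusted p = 0.0511) or emetine-experiment STM2457 replicate 2 (0.0519), and HOXB8 without knockdown DMSO replicate 1 or 2 or any 1 of the 6 emetine-experiment libraries (0.0524 to 0.0938). Neither passed with ribosomal protein scaling.

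The genes around and beyond the clusters were read from lists of names. Their counts hold for TMM scaling, and the shifts of all genes given above for the other scalings apply to them too. Over all genes 22.9% rose and 22.1% fell at 6 h, and 32.2% and 32.5% at 9 h. Of 87 tested homeobox genes outside the clusters 44 rose and 6 fell at 6 h (median log2 change 0.25), and at 9 h 62 of 85 rose and 6 fell (0.37). SIX2 (0.87 at 6 h and 1.02 at 9 h), which acts in kidney development, and MSX2 (1.50 at 6 h) were among those with the smallest p-values. Of the 15 tested noncoding RNAs of the clusters, most of them antisense to HOX genes, 4 rose and 1 fell at 6 h and 11 rose and 1 fell at 9 h, so the 6 h count lay near the share over all genes. HOXA10-AS, antisense to HOXA9 and HOXA10, rose by 0.91 and 1.09, and HAGLR, antisense to HOXD1 and HOXD3, fell by 0.68 at 6 h. Since the strand setting of the counting is not given, reads of HOXA9, HOXA10 and HOXA10-AS cannot be assigned with certainty. The same holds for HAGLR, HOXD1 and HOXD3. Of the genes flanking the clusters, 3 of 29 rose and 9 fell at 6 h, and 3 of 27 rose and 18 fell at 9 h, among them NFE2L2 (0.66), SMUG1 (−0.68) and NFE2L1 (−0.68) at 6 h.

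The counts for partners and regulators of HOX genes are to be read against the same shares of all genes, with no test of the difference. Of 9 PBX, MEIS and PKNOX genes, whose proteins bind DNA together with HOX proteins, 3 rose and 3 fell at 6 h, with MEIS2 at 0.44 and PBX2 at −0.35. Of 27 genes of the Polycomb complexes, which keep HOX genes silent, 10 rose and 7 fell at 6 h, with CBX8 at 0.83, PHF1 at −0.51 and PHF19 at −0.48. At 9 h 9 rose and 13 fell. Of 17 Trithorax and MLL genes, which keep HOX genes active, 2 rose and 4 fell at 6 h and 9 rose and 6 fell at 9 h, with NSD1 at 0.61 and 0.84. Of 16 tested retinoic acid pathway genes, which act upstream of anterior HOX genes in the embryo, 3 rose and 2 fell at 6 h. Of 6 tested CDX, EVX and ParaHox genes 2 rose and 1 fell.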

How the data were processed

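Reads were made into gene-level read counts by the submitters before deposit. Named in the submitters' processing notes, without their roles, are STAR 2.7.3a, Subread 2.0.0 and featureCounts, the build GRCh38.p12, FastQC 0.11.8, SAMtools 1.9, Trimmomatic and cutadapt (1.18 and 4.0). The library kit was strand-specific per the labels' protocols. Which annotation release was counted, and with which strand setting, is not given in the sources used here. The deposited values are raw counts per gene ID, with 92 ERCC spike-in entries in 24 of the 32 libraries, which stayed out of library sizes. Symbols were found for 60261 of 60662 IDs, and 58587 IDs, with all 38 members, are in GENCODE release 29, which gave lengths, overlaps and the sequence windows.

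edgeR 4.0.16 (R 4.3.3; filterByExpr, TMM, glmQLFit and glmQLFTest) was run on all genes of each experiment: 16662 in the knockdown, 15834 in the 9 h and 15817 in the emetine experiment, and 16720 in a fit of the 20 libraries without siRNA or emetine. p-values were adjusted over all genes by Benjamini-Hochberg, with a threshold of 0.05. The scripts were tested on simulated data. Alternatives were DESeq2 1.42.0, no low-count filter, scaling to 86 ribosomal protein genes or to the spike-ins, a replicate block and leaving out each library. Nothing says that the replicates were separate cultures, so p-values measure the spread between these libraries only.

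The members and lists were chosen with earlier results of these data known. Fitted changes are named for up to 15 members with the smallest p past the threshold in each group comparison, for every member past it against the direction of most, for up to 8 members for a difference between effects, and for up to 4 genes of each other list. Paralog groups and overlaps were described after their values were seen.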

Additional observations from a re-analysis of the deposited data

Results flagged for a closer look

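In 2 groups of 4 libraries 1 library lay apart from the others by Dixon's criterion, which chance meets in about 1 in 20 groups. The criterion was applied to every member named for STM2457 at 9 h, in both groups, so chance alone can give such flags. HOXD4 was 3.40 CPM in its lowest DMSO library at 9 h, against 3.89 to 3.96 CPM in the other 3, and HOXA9 was 126 CPM in its lowest STM2457 library at 9 h, against 145 to 146 CPM.

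Effects of STM2457 that differed between conditions, each by an interaction in edgeR, were as follows. With YTHDF2 siRNA the log2 effect was smaller by 1.01 for HOXD13 (−1.01), and the differences were −0.62 for HOXA5, −0.69 for HOXA9, −0.53 for HOXB7, −0.55 for HOXA6, −0.55 for HOXD11, −0.50 for HOXD8 and −0.63 for HOXA13. With emetine the differences were −0.89 for HOXA5, −1.15 for HOXA6, −0.63 for HOXD13, −0.48 for HOXB9, −0.54 for HOXB6, −0.48 for HOXB8, −0.37 for HOXA10 and −0.53 for HOXB7. HOXD13, HOXA5, HOXA6 and HOXB7 stand in both sets. At 9 h against the mean of both 6 h effects the differences were 0.57 for HOXB5, 0.43 for HOXB9, 0.41 for HOXA11, 0.61 for HOXA13, 0.45 for HOXB8, 0.41 for HOXD10, 0.38 for HOXB13 and 0.22 for HOXA10. Between the 6 h experiments they were −0.44 for HOXD13 and 0.38 for HOXB8.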

How the results depend on the processing

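Of the 217 results for named genes, DESeq2 kept the direction and the side of the threshold for 216 and lost 1, and dropping the low-count filter kept 213. With scaling to ribosomal protein genes 179 kept both, 36 lost the call and 2 turned round, and with spike-ins, run for the 156 results of the knockdown and emetine experiments, 92, 57 and 7. The cause was not tested. Reversed with spike-ins were PKNOX1 (−0.0468), RARA (−0.0524), RDH10 (−0.0694) and HOXB-AS3 (−0.0035) at 6 h, HOXA5 within the siRNA (−0.12), and HOXC13 (0.28) and HOXB9 (0.41) with emetine; the last 2 stood at 0.24 and 0.36 with ribosomal protein genes.

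Counts of members moved most with scaling. The shares of all genes under the same scalings stand beside most of these counts in the Results. With ribosomal protein genes and spike-ins, in that order, STM2457 at 6 h gave 15 and 4 higher and 3 and 3 lower; the siRNA 6 and 2 lower, and 7 higher with spike-ins; STM2457 within the siRNA 6 and 3 higher and 1 and 1 lower; its interaction 2 and 0 smaller; emetine 33 and 33 higher and 0 and 0 lower. STM2457 within emetine gave 12 higher and its interaction 8 smaller with spike-ins. With ribosomal protein genes the emetine experiment gave 2 lower at 6 h, the 9 h effect was larger for 32 and smaller for 0, and the 6 h effects differed for 0 in either direction. DESeq2 gave 0 members lower in the emetine experiment and 2 with a smaller 6 h effect there; without the filter these were 0 and 2, and emetine lowered 1 and STM2457 within the siRNA 1.

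Leaving out 1 library at a time gave 25 to 27 higher and 0 to 2 lower for STM2457 at 6 h, 29 to 33 and 1 at 9 h, and 24 to 26 and 0 to 1 in the emetine experiment. The ranges were 12 to 15 and 10 to 12 for the siRNA, 15 to 16 and 0 to 1 for STM2457 within it, 13 to 17 and 2 to 3 for emetine, and 18 to 20 and 4 for STM2457 within emetine. Interactions gave 8 to 12 members with the siRNA and 14 to 17 with emetine, the 9 h difference 10 to 14 larger and 2 smaller, and the 6 h difference 0 to 1 larger and 0 to 2 smaller.

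Replicate numbers did not pair the libraries: same-numbered libraries' deviations correlated from −0.146 to 0.154, over 0.1 in 1 of 18 pairs of the knockdown and 1 of 18 of the emetine experiment. With the replicate block all 217 results kept their call, 1 member was lower with STM2457 within the siRNA, 12 had a smaller effect there, and 13 a larger effect at 9 h. Low depth limits HOXC5, HOXD1, HOXC12 and HOXD4, with 2235 or fewer reads each over 32 libraries.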
